A study of Mus musculus with 9 samples.

Results

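The genes described here are 10 autosomal genes of glucose uptake and glycolysis, Slc2a1, Slc2a3, Hk1, Hk2, Pfkp, Aldoa, Tpi1, Eno1, Pkm2 and Ldha, taken as a named list out of 21410 autosomal protein-coding genes in the mm9 annotation. H3K27ac, an acetyl mark on histone H3 found at active promoters and enhancers, was read at these genes in naive CD8+ T cells by ChIP-seq. The cells were sorted from spleen as GFP+ and TCRbeta+ cells with the surface markers of naive CD8+ T cells, CD44lo-med among them. All mice carried hCD2-Cre and a Rosa26 lsl-GFP reporter that marks cells in which the Cre has acted. WT mice had intact Tcf7+/+ and Lef1+/+ alleles, and dKO mice had Tcf7 fl/fl and Lef1 fl/fl alleles, which the Cre deletes. Tcf7 and Lef1 encode the transcription factors Tcf1 and Lef1. The Cre is most active in mature T cells, so that deletion in dKO mice falls largely after thymic development, and the mice were of either sex and 6 to 12 weeks old. There were 4 WT and 3 dKO H3K27ac samples and 1 input sample for each genotype, 9 samples in all.

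Glycolysis turns glucose into pyruvate in the cytosol and yields ATP and building blocks for other pathways. Slc2a1 and Slc2a3 encode the glucose transporters GLUT1 and GLUT3, Hk1 and Hk2 encode hexokinases that trap glucose as glucose 6-phosphate, and Pfkp encodes the platelet form of phosphofructokinase, the committed step. Aldoa and Tpi1 encode aldolase and triosephosphate isomerase, which yield the triose phosphates, and Eno1, Pkm2 and Ldha encode enolase, pyruvate kinase and a lactate dehydrogenase subunit. Naive T cells rely mostly on oxidation of pyruvate in mitochondria and draw more heavily on glycolysis after activation.

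The deposited values were 1 list of H3K27ac-enriched islands for each genotype, called on the pooled samples, with a read count for each island. No island has a value for a single sample, so the differences given here lack a check by replicates, and no test between genotypes was possible. Intervals are 95% Wilson intervals that cover counting error only and take each read as independent. PCR duplicates can make several reads of 1 molecule, and where they remain the intervals are too narrow. The WT list held 65563 islands with 82668007 counts over 392.7 Mb, and the dKO list held 82213 islands with 57665047 counts over 429.3 Mb. Islands averaged 210.5 counts per kb for WT, against 134.3 for dKO. Counts were therefore divided by the total of their list and are given as counts per 1000000 island counts (CPM), and ratios are log2 dKO/WT of these scaled counts. Genes with a ratio of 1.5 or more in either direction were called. Because a wider island collects more counts, the same ratio was also taken per kb covered by islands. A gene window ran from the gene body to 50 kb upstream of the outermost transcription start site (TSS), and promoter islands were those within 1 kb of any annotated TSS of the gene. Islands were counted whole where they reached past the window. In sorted bulk cells, a mark carried by fewer cells and a weaker mark in each cell cannot be told apart.

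The Cre targets were examined as a check on the labels. Over their gene windows, the log2 ratio of scaled counts was 0.17 for Tcf7 and -0.30 for Lef1, and at their promoter islands it was -0.94 and -1.74. Islands span far more than the floxed exons, so both genes kept islands in the dKO list and the deletion itself cannot be read here. All 7 markers of T and CD8 T cells read here (Cd3d, Cd3e, Cd3g, Cd8a, Cd8b1, Ccr7 and Il7r) had promoter islands in both lists. They held 82.2 to 668.1 CPM each in WT and 48.2 to 298.7 CPM in dKO. Their sum was 1893.0 CPM in WT and 1283.3 in dKO, and their median 163.4 and 214.9. Promoter islands were also present in both lists at 2 of 2 CD4-lineage markers (summed 59.0 CPM in WT, 69.0 in dKO), 4 of 4 effector markers (190.4 and 337.6), 3 of 4 B cell markers (199.3 and 190.1), 1 of 2 NK cell markers (49.9 and 64.3) and 4 of 4 myeloid markers (116.5 and 98.3). The B cell marker Pax5 and the NK cell marker Ncr1 had no promoter island in either list. The part of other cells in the values below was not tested.

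To show what the promoters of these genes look like, 300 bases around the start of the first listed transcript of each gene (250 before the TSS and 50 from it on) were read from the mm9 genome and searched on both strands for CACGTG, the E-box read by Myc and Max, for ACGTG, the core of the hypoxia response element and also part of CACGTG, for GGGCGG, the GC box read by Sp factors, for CTTTGA, the core of the Tcf/Lef motif, and for TATAAA, the TATA box. The first transcript was the one numbered 001, or 201 for Pkm2. A subset of the promoters follows, 5′ to 3′ on the gene's strand with every match in capitals. Slc2a1 and Aldoa are shown because their promoter islands differed most between the lists, Ldha because it held CACGTG, and Slc2a3 and Pfkp because they held CTTTGA. They lie at chr4:118781066-118781365 (plus strand), chr7:133942719-133943018 (minus strand), chr7:54100959-54101258 (plus strand), chr6:122692714-122693013 (minus strand) and chr13:6647974-6648273 (minus strand).
Slc2a1: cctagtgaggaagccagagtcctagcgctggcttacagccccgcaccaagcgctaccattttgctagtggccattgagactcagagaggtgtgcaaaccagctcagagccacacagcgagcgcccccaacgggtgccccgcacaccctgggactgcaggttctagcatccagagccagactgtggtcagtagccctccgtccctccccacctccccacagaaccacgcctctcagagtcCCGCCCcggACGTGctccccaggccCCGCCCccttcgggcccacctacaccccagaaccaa
Aldoa: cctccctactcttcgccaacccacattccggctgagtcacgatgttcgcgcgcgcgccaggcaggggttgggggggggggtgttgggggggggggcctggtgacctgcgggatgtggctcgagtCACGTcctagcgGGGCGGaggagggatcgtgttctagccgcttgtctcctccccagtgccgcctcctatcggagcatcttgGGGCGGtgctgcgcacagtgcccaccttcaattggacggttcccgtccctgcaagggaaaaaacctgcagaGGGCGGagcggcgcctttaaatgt
Ldha: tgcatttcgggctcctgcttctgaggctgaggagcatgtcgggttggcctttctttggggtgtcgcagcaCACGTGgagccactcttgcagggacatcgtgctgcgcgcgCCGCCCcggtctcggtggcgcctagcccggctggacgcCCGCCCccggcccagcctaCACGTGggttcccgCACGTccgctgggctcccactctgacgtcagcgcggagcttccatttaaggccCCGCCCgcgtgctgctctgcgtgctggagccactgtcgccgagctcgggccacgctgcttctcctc
Slc2a3: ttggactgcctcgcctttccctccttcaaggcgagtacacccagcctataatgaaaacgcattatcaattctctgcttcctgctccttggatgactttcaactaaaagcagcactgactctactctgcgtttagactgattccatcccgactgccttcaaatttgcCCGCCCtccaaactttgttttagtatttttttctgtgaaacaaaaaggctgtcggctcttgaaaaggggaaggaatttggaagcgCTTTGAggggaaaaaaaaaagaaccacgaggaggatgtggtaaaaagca
Pfkp: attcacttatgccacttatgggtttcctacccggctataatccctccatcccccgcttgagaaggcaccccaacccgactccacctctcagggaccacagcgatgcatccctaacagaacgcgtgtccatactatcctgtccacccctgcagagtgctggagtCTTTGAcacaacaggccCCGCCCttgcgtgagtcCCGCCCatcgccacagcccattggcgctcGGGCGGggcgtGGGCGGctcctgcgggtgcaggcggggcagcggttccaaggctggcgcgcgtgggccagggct

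GC boxes were the most common match. GGGCGG was found in 8 of the 10 promoters, and in 44.5% of 43962 windows of the same length at autosomal protein-coding TSSs. ACGTG was found in 5 of 10, against 21.1% of all windows, and CACGTG in 1 of 10, against 7.67%. That 1 was Ldha, which held CACGTG at -180 and -83 with the TSS at position 0, and held a further ACGTG at -69. CTTTGA was found in 2 of 10, at 1 in Slc2a3 and at -87 in Pfkp, against 14.1% of all windows. TATAAA was found in 0 of 10, against 11.4%. Hk1 and Tpi1 held none of the 5 motifs in these windows. The Hk1 window lies at its outermost TSS, whose island was weak (418 counts in WT and 492 in dKO). The TSSs inside Hk1, where most of its signal lay, were not searched. The median GC content was 65.2% for the 10 promoters and 56.3% for all windows, and the median number of CG dinucleotides was 22.5 and 12. The 10 promoters are 1 TSS for each gene, while all windows may hold several TSSs of a gene. The 10 promoters and all windows were not matched for GC content, and the shares describe sequence and not binding.

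All 10 genes carried promoter islands in both lists. In the gene window, scaled counts ranged from 72.5 CPM (Tpi1) to 258.7 CPM (Slc2a3) in WT, and from 65.1 CPM (Pkm2) to 281.3 CPM (Aldoa) in dKO. At promoter islands they ranged from 15.9 CPM (Hk2) to 130.3 CPM (Hk1) in WT, and from 18.7 CPM (Hk2) to 237.8 CPM (Aldoa) in dKO. These sums grow with the width of the islands. Per kb, the WT promoter islands of Aldoa were the deepest of the 10, with 460.6 counts per kb, at the 77.5th percentile of autosomal promoters with islands. Those of Hk1 were the shallowest, with 219.8 counts per kb, at the 28.8th percentile. In dKO the deepest were those of Eno1, with 212.5 counts per kb at the 65.4th percentile, and the shallowest those of Pfkp, with 127.2 counts per kb at the 22.3rd percentile. All values of the 10 genes in both lists lay between these 22.3rd and 77.5th percentiles.

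**Figure D1:**
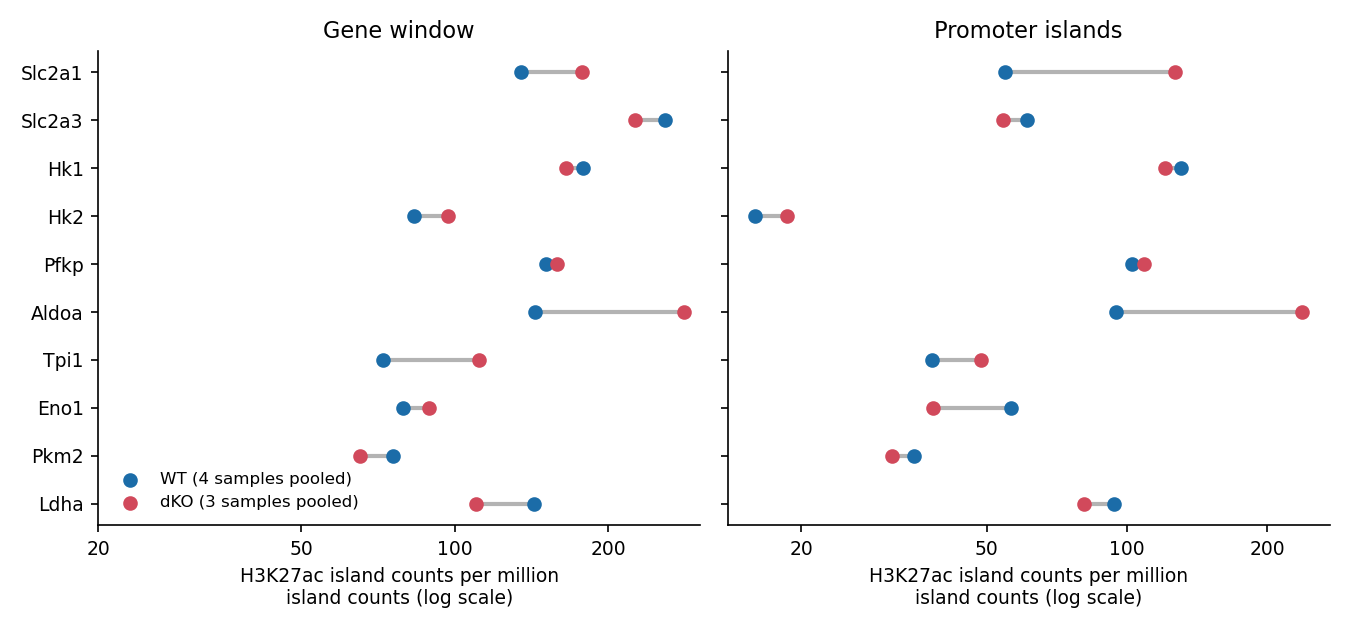
H3K27ac island CPM (log scale) for the 10 glycolysis genes in WT (blue, 4 samples pooled) and dKO (red, 3 samples pooled), in the gene window (left) and at promoter islands (right). Aldoa had the widest gap between the lists in both panels, from 143.3 to 281.3 CPM in the window and from 94.7 to 237.8 CPM at the promoter.

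Between genotypes, 2 of the 10 genes were called higher in dKO by scaled counts in the gene window, Aldoa and Tpi1, and 0 were called higher in WT. Among the 16043 autosomal genes with islands in both lists, 11.7% were called higher in dKO and 10.3% higher in WT, and with 10 genes this share is near the background. Per covered kb, 0 genes were called in either direction, where 0.362% of all genes were called higher in dKO and 9.28% higher in WT. The median log2 ratio of the 10 genes was 0.12 by counts and -0.11 per kb, against -0.01 and -0.16 over all genes. The covered width had a median log2 ratio of 0.27 in the windows of the 10 genes and 0.18 in those of all genes. Per kb, all 10 windows differed by less than the call ratio. Of the 10, 7 were covered over more sequence in dKO, as were 66.3% of those of all genes.

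At promoter islands, 2 of the 10 genes were called higher in dKO by counts, Slc2a1 and Aldoa, and 0 higher in WT, where 12.6% of 13062 genes were called higher in dKO and 20.1% higher in WT. Per covered kb, 0 were called higher in dKO and 1 higher in WT, which was Aldoa again, in the opposite direction. The background was 2.29% higher in dKO and 17.3% higher in WT. The median log2 ratio was -0.01 by counts and -0.32 per kb, against -0.24 and -0.20 over all genes, and 9 of the 10 ratios per kb lay below 0, as did 71.4% of those of all genes. Promoter islands of the 10 genes had a median log2 width ratio of 0.36, against 0.03 over all genes. Counts and counts per kb thus had opposite signs at 6 of the 10 promoters. With islands within 1 kb of each other joined, the Slc2a1 promoter was no longer called by counts (0.49) nor that of Aldoa per kb (-0.55), and the Eno1 promoter changed sign from -0.56 to 0.35 by counts. With only the outermost TSS of each gene, 4 promoters were called higher in dKO by counts, Hk1 (0.75) and Pfkp (0.83) being added, and 3 higher in WT per kb, Pfkp (-1.06) and Slc2a3 (-0.82) being added. Shares over all genes were not computed with islands joined or with only the outermost TSS. The shares given above belong to another setting, so these counts cannot be set against them.

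**Figure D2:**
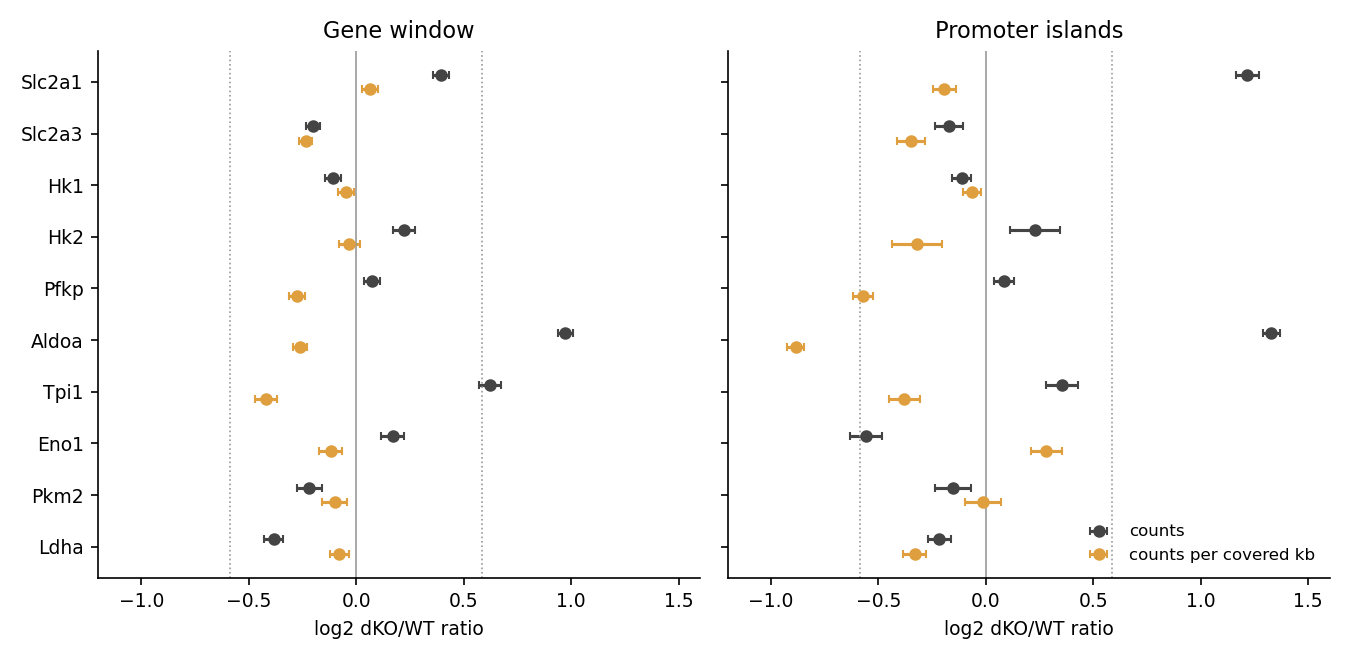
Log2 dKO/WT ratio of each gene by scaled counts (black) and by counts per covered kb (orange), in the gene window (left) and at promoter islands (right), with 95% Wilson intervals for counting error only and dotted lines at the ratio of 1.5. The 2 measures part most at the Aldoa promoter, at 1.33 by counts and -0.88 per kb.

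**Figure D3:**
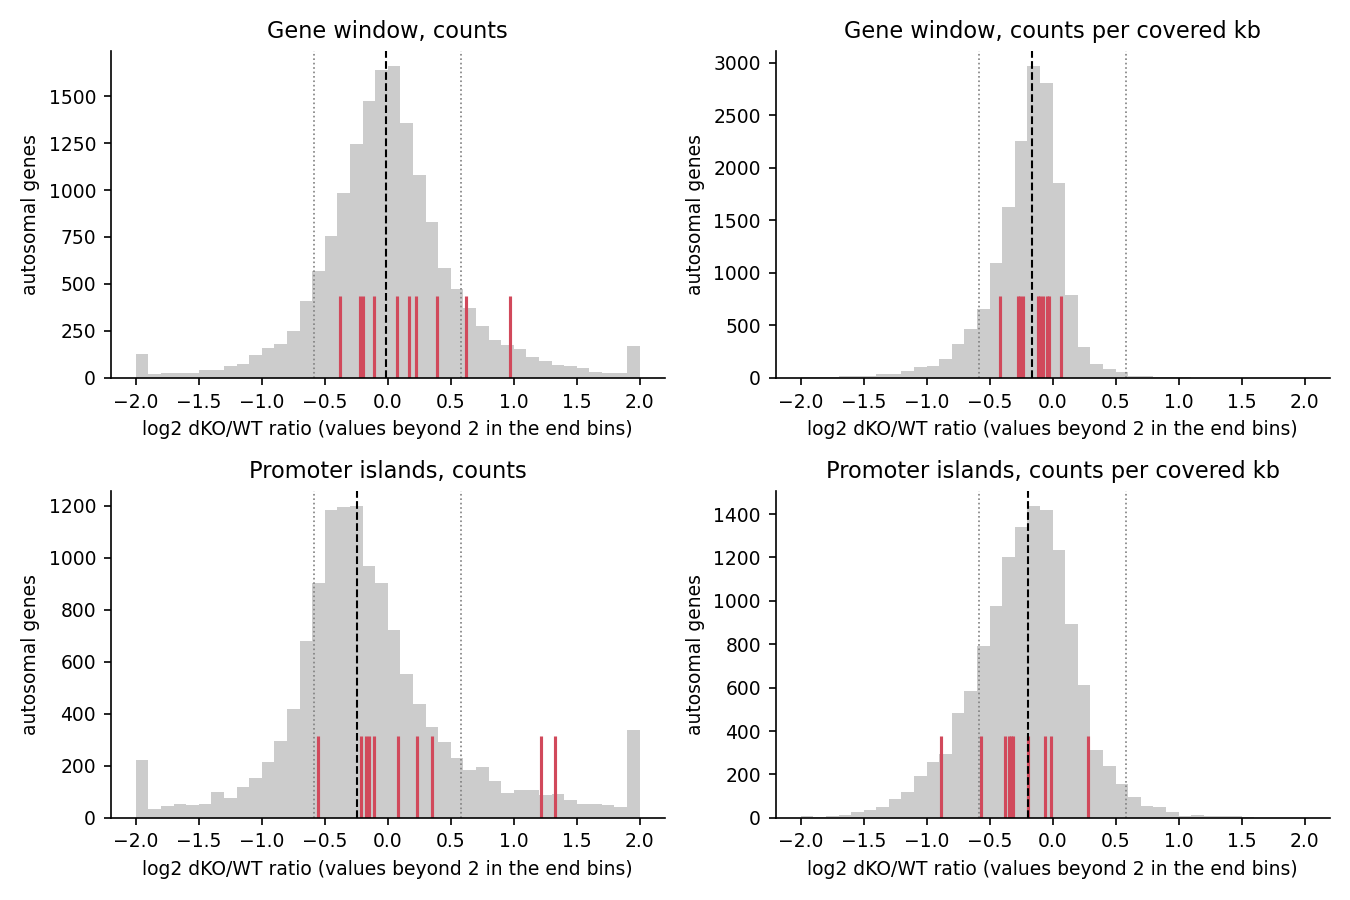
Number of autosomal genes (grey) by log2 dKO/WT ratio, for both measures in gene windows and at promoters, with the median of all genes (dashed), the ratio of 1.5 (dotted) and the 10 glycolysis genes (red). The glycolysis genes lie across the middle of each distribution, and those past a dotted line are Aldoa and Tpi1 (window counts), Slc2a1 and Aldoa (promoter counts) and Aldoa (promoter counts per kb).

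Glucose transporters differed from each other. Slc2a1 (chromosome 4, 118781316 to 118809935, plus strand), the broadly used transporter GLUT1, held 11162 counts over 53.8 kb in its WT window and 10233 counts over 67.6 kb in dKO. These are 135.0 and 177.5 CPM, a log2 dKO/WT of 0.39 (0.36 to 0.43), which was not called, and the ratio per kb was 0.06. The promoter island was 15.6 kb wide with 4524 counts in WT and 41.4 kb wide with 7327 counts in dKO, a log2 dKO/WT of 1.22 (1.16 to 1.27) by counts and -0.19 (-0.25 to -0.14) per kb. In WT this stretch was cut into the promoter island and an island of 14 kb with 3403 counts over the rest of the gene, with a gap of less than 1 kb between them. In dKO 1 island covered both and ran on past the end of the gene. All 5 regions upstream and at the promoter that had islands in both lists had ratios per kb above 0, from 0.05 to 0.48 and none called, and a dKO island of 5.6 kb with 521 counts, from 35.5 to 29.9 kb upstream, had no WT counterpart.

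Slc2a3 (chromosome 6, 122677827 to 122751658, minus strand), the high-affinity transporter GLUT3, had the most counts of the 10 windows in WT. It held 21383 counts across 73 kb for WT, against 12984 across 74.8 kb for dKO, or 258.7 and 225.2 CPM, a log2 dKO/WT of -0.20 (-0.23 to -0.17) by counts and -0.24 per kb. Much of this lay upstream of the outermost TSS: an island 4.9 to 12.1 kb upstream had 4977 counts over 7.2 kb in WT, and its dKO counterpart 2621 counts over 7.8 kb, a ratio of -0.41 by counts and -0.52 per kb. The island at the outermost TSS, that of transcript Slc2a3-008, had 2412 counts across 4.2 kb for WT, against 1411 across 6.2 kb for dKO. The island at the cluster of 3 TSSs inside the gene, which includes the 001 transcript, had 2634 counts across 9.6 kb for WT, against 1715 across 9.4 kb for dKO, a ratio of -0.10 by counts and -0.07 per kb. The outermost TSS and the upstream island thus had lower depth in dKO, and the ratio at the internal TSS cluster lay nearer to 0. The region 15.5 to 27.1 kb upstream, with a ratio of -0.37 by counts, also covered the promoter of Foxj2.

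The hexokinase genes were close to even between the lists. Hk1 (chromosome 10, 61731603 to 61842656, minus strand), the housekeeping isoform, has 11 annotated TSSs and held 14745 counts across 81.6 kb for WT, against 9533 across 78.2 kb for dKO. These are 178.4 and 165.3 CPM, a log2 dKO/WT of -0.11 (-0.15 to -0.07) by counts and -0.05 per kb. Most of the signal lay over TSSs inside the gene, where WT islands of 21.4 kb with 4507 counts and of 12.6 kb with 4303 counts stood in the place of 1 dKO island of 31.2 kb with 5444 counts, a ratio of -0.17 by counts and -0.05 per kb for the merged region. The outermost TSS had only a weak island, with 418 counts across 3.6 kb for WT, against 492 across 6.2 kb for dKO, and the TSS at 61837848 had none in either list. Upstream of the gene 3 islands, with 264 to 469 counts, were found in WT alone. The region with the largest count ratio of all 10 genes lay over exons of Hk1, 72.3 to 82.7 kb past the outermost TSS, where a WT island of 1.4 kb with 208 counts overlapped a dKO island of 10.4 kb with 903 counts. Its log2 ratio was 2.64 by counts and -0.26 per kb.

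Hk2 (chromosome 6, 82675019 to 82724448, minus strand), the inducible isoform, had the weakest promoter islands of the 10 genes by counts. Its window held 6874 counts across 44.8 kb for WT, against 5593 across 53.4 kb for dKO, or 83.2 and 97.0 CPM, a log2 dKO/WT of 0.22 (0.17 to 0.27) by counts and -0.03 per kb. The promoter island had 1317 counts across 5.2 kb for WT, against 1077 across 7.6 kb for dKO, a ratio of 0.23 (0.11 to 0.35) by counts and -0.32 (-0.43 to -0.20) per kb. Joined with the islands that overlap it in the other list, the merged region gave -0.35 by counts and 0.02 per kb. The signs of both measures at this promoter thus changed with the islands counted. In Hk2, 3 islands with 119 to 356 counts were found in dKO alone and 1, with 402 counts in an intron, in WT alone.

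Pfkp (chromosome 13, 6579014 to 6648023, minus strand) held 12469 counts across 64.4 kb for WT, against 9153 across 82 kb for dKO, or 150.8 and 158.7 CPM. The log2 ratio was 0.07 (0.03 to 0.11) by counts and -0.27 per kb. At its promoters, WT had islands of 9.4 kb with 4137 counts at the outermost TSSs and of 18.8 kb with 4003 counts at a TSS inside the gene, and dKO had 1 island of 35 kb with 5144 counts across both. A further promoter island, near the 3′ end of the gene, had 319 counts across 3 kb for WT, against 1115 across 14.2 kb for dKO. Summed, the promoter islands had ratios of 0.09 (0.04 to 0.13) by counts and -0.57 (-0.62 to -0.52) per kb, just inside the limit for a call at 0.58. Islands in 1 list alone were most numerous here, with 4 in dKO (159 to 335 counts) and 2 in WT (198 and 251 counts).

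Aldoa (chromosome 7, 133938748 to 133944265, minus strand), a short gene among close neighbours, had the largest count ratios of the 10 in the window and at the promoter, and the lowest promoter ratio per kb. Its window held 11845 counts across 43.6 kb for WT, against 16222 across 102.6 kb for dKO, or 143.3 and 281.3 CPM, a log2 dKO/WT of 0.97 (0.94 to 1.01) by counts and -0.26 (-0.30 to -0.23) per kb. The promoter island was 17 kb wide with 7830 counts in WT and 78.8 kb wide with 13713 counts in dKO, a ratio of 1.33 (1.29 to 1.37) by counts and -0.88 (-0.92 to -0.84) per kb. The dKO island ran 61.7 kb past the outermost TSS, far beyond the gene, and with the WT islands it joined it made up a region (133871001 to 133962000) that also covers promoters of Fam57b, Gdpd3, Gm9967, Mapk3, Ppp4c, Tbx6 and Ypel3. Over that whole region WT had 8 islands with 19929 counts over 82.4 kb and dKO had 2 with 14725 counts over 89.8 kb, a ratio of 0.08 by counts and -0.04 per kb. Over this merged region the difference at Aldoa was thus below the limit for a call.

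Tpi1 (chromosome 6, 124760604 to 124764314, minus strand) held 5990 counts across 23.8 kb for WT, against 6425 across 49 kb for dKO, or 72.5 and 111.4 CPM. The log2 ratio was 0.62 (0.57 to 0.67) by counts and -0.42 (-0.47 to -0.37) per kb, the lowest of the 10 windows per kb. The promoter island had 3151 counts across 12.4 kb for WT, against 2810 across 20.6 kb for dKO, a ratio of 0.35 (0.28 to 0.43) by counts and -0.38 (-0.45 to -0.30) per kb. The largest count ratio of the window lay in a region 12.9 to 29.1 kb upstream (124777201 to 124793400), where WT had 1306 counts over 3.4 kb and dKO 2093 counts over 16.2 kb, a ratio of 1.20 by counts and -1.05 per kb. That region covers promoters of Cdca3, Gnb3 and Usp5, and 4 of the 5 regions in the Tpi1 window cover the promoter of another gene. A dKO island with 292 counts, 29.9 to 33.3 kb upstream, had no WT counterpart.

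The genes of the last steps, Eno1, Pkm2 and Ldha, had promoter ratios per kb of 0.28, -0.01 and -0.33. Eno1 (chromosome 4, 149610830 to 149622988, plus strand) held 6538 counts across 34.2 kb for WT, against 5131 across 41.8 kb for dKO, or 79.1 and 89.0 CPM, a log2 dKO/WT of 0.17 (0.12 to 0.22) by counts and -0.12 per kb. It was the 1 gene of the 10 whose promoter island was narrower in dKO by over 1.5 times, with 4662 counts across 18.6 kb for WT, against 2210 across 10.4 kb for dKO. The ratio there was -0.56 (-0.63 to -0.48) by counts and 0.28 (0.21 to 0.35) per kb, the highest of the 10 per kb. In dKO the stretch just upstream was a separate island of 10 kb with 914 counts, and over the merged region of 37.8 kb the ratio was 0.05 by counts and -0.12 per kb. The largest island found in 1 list alone at any of the 10 genes lay 31.2 to 37.4 kb upstream of Eno1, in dKO, with 611 counts over 6.2 kb, and it touched the promoter of Car6.

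Pkm2 (chromosome 9, 59504383 to 59527182, plus strand) held 6259 counts across 28.2 kb for WT, against 3754 across 26 kb for dKO, or 75.7 and 65.1 CPM, a log2 dKO/WT of -0.22 (-0.28 to -0.16) by counts and -0.10 per kb. Its promoter island kept nearly the same borders, with 2884 counts across 10.8 kb for WT, against 1810 across 9.8 kb for dKO, and the ratio per kb was -0.01 (-0.10 to 0.07). That interval includes 0, so the ratio per kb lay within counting error, and a difference between genotypes was not tested. By counts the ratio of the Pkm2 promoter island was -0.15 (-0.24 to -0.07). The deepest island upstream of it, 36.8 to 41.0 kb away with 1605 counts in WT and 852 in dKO, covered the promoter of Parp6.

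Ldha (chromosome 7, 54096845 to 54110997, plus strand), whose promoter held both CACGTG matches printed above, held 11842 counts across 38 kb for WT, against 6335 across 30.8 kb for dKO, or 143.2 and 109.9 CPM. The log2 ratio of -0.38 (-0.43 to -0.34) was the lowest of the 10 windows by counts, and per kb it was -0.08. The promoter island was of like width in both lists, with 7757 counts across 24.2 kb for WT, against 4659 across 26.2 kb for dKO, a ratio of -0.22 (-0.27 to -0.16) by counts and -0.33 (-0.38 to -0.28) per kb. A WT island of 8.8 kb with 1110 counts reached into the window from the neighbouring Ldhc gene, while its dKO counterpart of 8.2 kb with 687 counts lay outside the window. With that counterpart counted, the ratio of the window was -0.23. All 3 regions at Ldha covered the promoter of another gene.

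**Figure D4:**
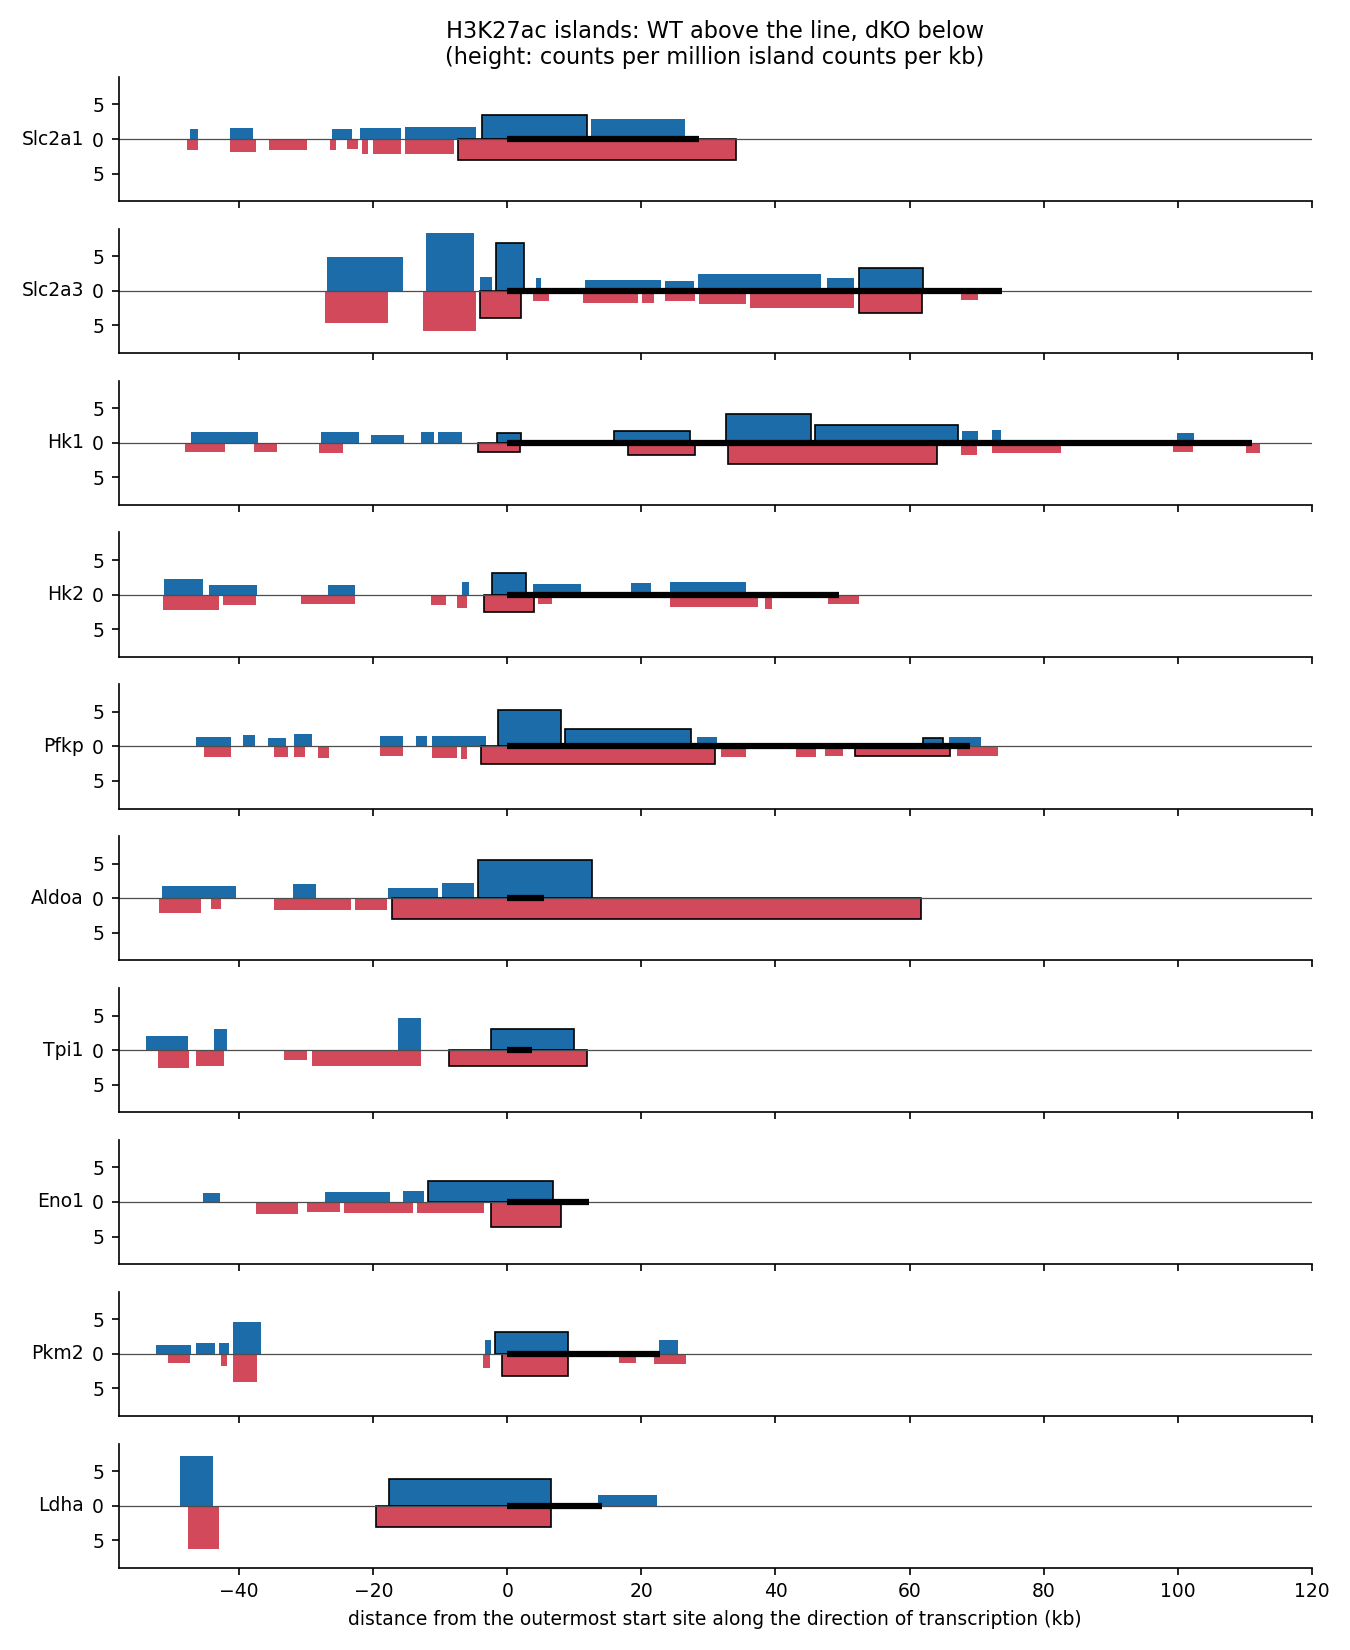
Islands in the windows of the 10 genes by distance in kb from the outermost TSS along the direction of transcription, WT above and dKO below the line, with the height giving CPM per kb, promoter islands outlined and the gene body as a black bar. Wide single islands in dKO stand under several WT islands at Slc2a1, Hk1, Pfkp and Aldoa, and the Eno1 promoter shows the reverse.

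With islands of both lists merged into regions, the promoter ratios of the 10 genes spanned a smaller range. Each list still counted only its own islands in a region, so the width counted could differ. At the Slc2a1 promoter it was 42.6 kb in WT and 51.4 kb in dKO. Islands of both lists that share a base were merged, which gave 71 regions touching the windows of the 10 genes, of which 50 had islands in both lists, 8 in WT alone and 13 in dKO alone. Regions found in 1 list alone had at most 611 counts. The share of such regions over all autosomes was not computed, so 8 and 13 cannot be set against a background. The dKO list held more islands in all, 82213 against 65563 in the WT list. Of the 50, 24 were covered over a greater width in dKO, 22 over a smaller width and 4 over the same. Over 44698 autosomal regions with islands in both lists, 44.2% were wider in dKO and 45.8% narrower. Of all 71, 17 covered the promoter of another gene. By counts 9 of the 50 were called higher in dKO and 3 higher in WT, where 11.2% and 14.2% of 44698 autosomal regions were called. Per kb 0 were called higher in dKO and 1 higher in WT (upstream of Tpi1), against 1.17% and 4.42%. The merged regions, chosen as a reading after the data were seen, left 1 of 10 windows called higher in dKO (Tpi1, at 0.59) and 0 higher in WT, against 7.23% and 8.05% of all genes. At promoters 0 of 10 were called in either direction, against 3.7% higher in dKO and 9.86% higher in WT, and the promoter ratios of the 10 ran from -0.35 (Hk2) to 0.33 (Slc2a1). The median at promoters over merged regions was -0.05 for the 10 genes and -0.17 for all genes.

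**Figure D5:**
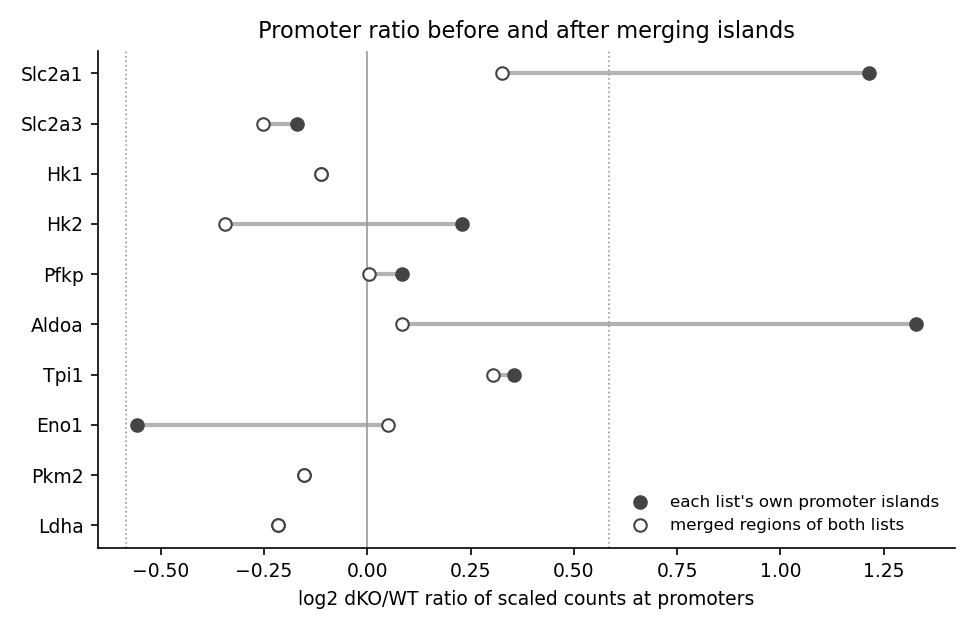
Log2 dKO/WT ratio of scaled counts at the promoters of the 10 genes, from each list's own promoter islands (filled) and from the merged regions of both lists (open), with dotted lines at the ratio of 1.5. Slc2a1 moved from 1.22 to 0.33 and Aldoa from 1.33 to 0.08, so that all open points lie between the dotted lines.

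The other enzymes of the pathway were read the same way. Of 17 further autosomal glycolysis genes 16 had window islands in both lists, and Pgk2, the testis phosphoglycerate kinase, had none in either. By window counts 1 of the 16 was called higher in dKO (Pgam2, the muscle phosphoglycerate mutase, at 0.85) and 0 higher in WT, with Hkdc1 lowest at -0.50 and a median of 0.03 by counts and -0.18 per kb. By promoter counts 1 of the 16 was called higher in dKO and 4 higher in WT, with a median of -0.23. By promoter depth per kb 0 were called higher in dKO and 2 higher in WT, Gpi1 (-0.70), the isomerase that follows hexokinase, and Eno2 (-0.75), the neuronal enolase. The Eno2 promoter lay in a WT island of 79.8 kb with 25464 counts and in a dKO island of 21.2 kb with 2808 counts, a ratio of -2.66 by counts. Over the whole Eno2 window, the ratio was -0.13 by counts and -0.16 per kb, and outside promoter islands it was 2.36 by counts. The promoter ratio of Eno2 thus depended on how far the island at the promoter reached. Gapdh, the dehydrogenase that follows Tpi1 in the pathway, had a window ratio of 0.46 by counts and -0.20 per kb. By window counts the medians were thus 0.12 for the 10 genes, 0.03 for the further enzymes and -0.01 for all genes, and by promoter counts they were -0.01, -0.23 and -0.24. The further enzymes were not wholly separate from the 10 genes. The promoter islands of Hkdc1 are among those of the Hk1 window, and the Eno2 window takes in Tpi1.

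Of 8 further glucose transporter genes, 1 was called higher in dKO by window counts (Slc2a5, a fructose transporter, at 0.79) and 2 higher in WT (Slc2a10 at -0.86 and Slc2a9 at -0.67), with a median of -0.07. Of the 6 with promoter islands in both lists, 3 were called higher in dKO by promoter counts and 0 higher in WT, with a median of 0.35. Per kb 0 were called higher in dKO and 1 higher in WT, Slc2a8, at -0.77 per kb and 0.69 by counts, so its calls by the 2 measures opposed each other. Among the 4 autosomal genes for enzymes that set the level of fructose 2,6-bisphosphate, the activator of phosphofructokinase, 0 were called by window counts, with Pfkfb4 highest at 0.18 and Pfkfb2 lowest at -0.21. By promoter counts 0 of the 4 were called. The promoter of Tigar, whose product removes that activator, was called higher in WT per kb (-1.16) and stood at 0.50 by counts.

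Genes that export lactate or pass pyruvate on to mitochondria had the lowest median of the lists examined by window counts, -0.17, over 9 of 10 autosomal genes with islands in both lists. In that list 0 were called higher in dKO and 2 higher in WT, the monocarboxylate transporters Slc16a7 (-0.93) and Slc16a1 (-0.60), and Pdhb was highest at 0.21. Of 8 promoters, 0 were called higher in dKO and 2 higher in WT by counts. Per kb 1 was called higher in dKO (Mpc1, a subunit of the mitochondrial pyruvate carrier, at 0.61) and 2 higher in WT (Pdk2, a kinase that shuts off pyruvate dehydrogenase, at -0.86, and Bsg, the partner of lactate transporters, at -0.83). The same promoters stood at -0.74 (Mpc1), 0.50 (Pdk2) and 0.03 (Bsg) by counts, so that Mpc1 was called in opposite directions by the 2 measures. Of 7 genes for factors that act on glycolysis genes, 0 were called higher in dKO and 2 higher in WT by window counts, Hif1a (-0.64) and Myc (-0.59). Arnt, the partner of Hif1a, was highest at 0.33. At promoters 1 of the 7 was called higher in dKO and 1 higher in WT by counts, and per kb 0 were called higher in dKO and 2 higher in WT, Hif1a (-1.88) and Mlxip (-1.01), which stood at -0.29 and -0.09 by counts. Of 16 tricarboxylic acid cycle genes, 1 was called higher in dKO by window counts (Idh3a, at 1.09), 0 higher in WT, and the lowest was Sdhd at -0.45, with a median of 0.07. At their promoters 0 were called higher in dKO by either measure, and 2 by counts and 3 per kb higher in WT, the 3 being Idh3b (-0.71), Sucla2 (-0.66) and Dlst (-0.60, with 0.48 by counts).

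Other housekeeping lists were read beside the 10 genes by window counts. Of 76 ribosomal protein genes with islands in both lists, 5 were called higher in dKO and 4 higher in WT, with a median of -0.08 and a span from -0.98 (Rps20) to 3.12 (Rps21). Of 40 proteasome genes 6 were called higher in dKO and 3 higher in WT, with a median of -0.01. Their promoters had medians per kb of -0.51 and -0.24, on either side of the -0.32 of the glycolysis genes. Genes on chromosome X were kept apart, because its median window ratio was -0.62 by counts. Against that value Pgk1, the phosphoglycerate kinase of most cells, stood at -0.78, Pfkfb1 at -0.81, Pdk3 at -0.72 and Pdha1 at -0.40.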

How the data were processed

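H3K27ac ChIP-seq was analysed from 2 deposited island lists, 1 per genotype. The authors aligned reads to mm9 with Bowtie2 (2.2.5), kept uniquely mapped reads of mapping quality above 10, pooled replicates and called islands with SICER (1.1) in windows of 200 bp, allowing gaps of 400 bp at an FDR under 0.01. The deposited counts are whole numbers of reads per island, not scaled for depth or width. Duplicate removal is not given in the sources used here. The input samples were not analysed here. Scaling by island totals removes differences in enrichment together with those in depth from the counts. It leaves the borders of islands as they were called. A stretch without an island has no count, and its level is unknown.

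Islands were assigned to genes of GENCODE vM1 with Python (3.11.15) and numpy (2.4.6). All listed symbols matched, some through synonyms of a RefSeq table used for names only. Of other lists, genes named are those called per kb at the promoter or the most raised and most lowered. Genes and lists were chosen with earlier results of these data known, and Tcf7, Lef1, Gapdh and Pgk2 were named after their values were seen. A few items of these lists are not reported here. Reads that match processed gene copies equally well were removed by the quality filter. Overlap counting was checked against a plain loop over the same island lists, and intervals were tested on simulated counts. Alternatives changed scaling, window, promoter width, TSS, island filter and call ratio.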

Additional observations from a re-analysis of the deposited data

How the results depend on the processing

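Each value rests on 1 pooled list per genotype, so samples were not left out in turn, and the spread between samples is unknown. Read depth bounds the counting error but not that spread. The lists differ in depth, and its effect on where islands were called and how wide they are was not tested. No paired analysis was possible because the deposited islands carry no sample. No windows of 2 of the 10 genes lay within reach of each other, so the alternative that leaves out overlapping members was not run.

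The median by window counts, 0.12, was 0.19 with scaling by the counts of islands shared by both lists, 0.061 with the window cut to 1 kb upstream, 0.071 to 100 kb upstream, 0.069 with islands cut at the window and -0.035 without islands over promoters of other genes, where Tpi1 and Ldha had no ratio and 8 genes were left. The median at promoters by counts, -0.01, was 0.057 with the shared-island scaling and 0.29 with only the outermost TSS. At promoters per kb, -0.32, it was -0.19 with islands within 1 kb joined and -0.093 over merged regions, an alternative chosen after seeing the data. Other alternatives moved these medians by less than counting error.

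The number of genes called by window counts was 2, and it became 1 under several alternatives. These were the window cut to 1 kb or 10 kb upstream (Aldoa), islands cut at the window (Tpi1) and merged regions (Tpi1). Without islands over promoters of other genes, 1 of the 8 genes left was called, Aldoa at -2.25 in place of 0.97. This was the 1 called value that changed sign, but it does not compare the same stretch in both lists. The Aldoa promoter islands were left out of both lists. What remained was a WT island of 872 counts, 4.9 to 9.7 kb upstream, and a dKO island of 128 counts, 42.7 to 44.1 kb upstream. That value is therefore not read as a change at Aldoa. It was 4 at the looser call ratio and 0 at a ratio of 2. Per kb the number went from 0 to 1 with windows to 1 kb or 10 kb upstream (Aldoa, -0.88 and -0.68) and at the looser call ratio (Tpi1). Apart from merged regions, no share of all genes was computed for these alternatives. Their numbers of calls therefore cannot be set against a background. Scaling by shared islands moved every log2 ratio by 0.07, and scaling by the median gene by 0.01.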
